A study of Rattus norvegicus with 6 samples.

Results

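The fragments described here are the tRFs (fragments cleaved from tRNAs) whose numbers lie from tRF00006750 to tRF00006909, around the abundant tRF00006830, in perirenal fat of rats. The members were chosen by their number and by their counts, and needed 10 or more counts in 3 or more of the 6 libraries. This kept 62 of the 160 tRFs in that range of numbers, out of 65535 tRFs in the table. The table stops at the row limit of an older spreadsheet format and holds only part of the numbering, so totals, shares and ranks below are within its rows. Of the 98 left out, 2 had no count in any library and 96 stayed under the minimum. The 62 held between 99.8% and 99.96% of the counts of the whole range in every library. The HFD libraries (HFD 1, HFD 2 and HFD 3) came from male Sprague Dawley rats on a high fat diet with 40% fat, and the LFD libraries (LFD 1, LFD 2 and LFD 3) from male Sprague Dawley rats on what the paper calls a low fat diet and the labels normal chow. Feeding began at 6 weeks of age and lasted 100 days in both groups, with 8 rats each, of which 3 libraries per group were sequenced. The labels name heart as well as adipose and an age of 8 weeks; tissue and feeding are given here as the paper has them. RNA of 15 to 40 nt was cut from a gel before sequencing. No gene is counted in the table, so markers of fat tissue cannot be looked up. Whether each library stands for another rat is not stated, so a p-value measures the spread between libraries only.

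tRNAs carry amino acids to the ribosome and are among the most abundant RNAs of a cell. Nucleases cut them at defined places, in or beside the loops, and the pieces differ in stability, so 1 tRNA can leave fragments of several lengths with the same start. Such fragments have been found bound to argonaute proteins, like miRNAs, and some are more abundant under stress. Because tRNA genes exist in many near-identical copies, fragments of related tRNAs can share most of their letters and their reads. The table pairs the numbers with no sequence, length or parent tRNA, so the fragments are named by number only, no sequence is shown, and what the members are cut from is unknown here. In whole fat tissue, fewer cells of a type and less RNA per cell cannot be told apart.

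Totals ranged from 5751653 to 12180060 counts in the HFD libraries and from 1322760 (LFD 1) to 9729804 in the LFD libraries, so LFD 1 gave the least precise values. For the comparison of the diets, edgeR's quasi-likelihood test was run over all 3200 tRFs that met the count minimum, with TMM scaling (factors 0.685 to 1.85). Under that scaling the median log2 fold change (HFD over LFD) of the tRFs tested was −0.36, and fold changes are read beside it.

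As a share of all counts, the 62 members together did not separate the diets, but their division did. They took 3.71%, 5.09% and 3.71% of all counts in HFD 1, HFD 2 and HFD 3, against 3.81%, 3.21% and 2.87% in LFD 1, LFD 2 and LFD 3. HFD 1 and HFD 3 lay below LFD 1, and the means were 4.17% ± 0.797 and 3.30% ± 0.478 (SD, n = 3 each; two-sided exact permutation test, p = 0.3). Within these counts, tRF00006830 made up 77.7%, 90.0% and 77.6% in HFD 1, HFD 2 and HFD 3, against 63.6%, 67.8% and 65.5% in LFD 1, LFD 2 and LFD 3. Every HFD library stood above every LFD library, by 16.1 percentage points in the mean (81.7% ± 7.13 and 65.6% ± 2.11, SD, n = 3 each; exact permutation test, p = 0.1, which is the smallest possible with 3 against 3, and 0.15 adjusted over the 3 shares tested). The difference was 12.0 points without HFD 2. The range was set around tRF00006830 with its shares of all counts known. The p-values for this share and for the sum of all 62 are therefore descriptive and no separate evidence. Being taken within each library, this division does not depend on how libraries are scaled. In LFD 1, which has the widest interval, the share of 63.6% carries an exact (Clopper-Pearson) 95% interval of 63.1% to 64.0%; such intervals cover counting error only.

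Summed, the other 61 members took a smaller share of all counts in HFD, where each library lay below all 3 LFD libraries. Their sum was 0.828%, 0.511% and 0.833% in HFD 1, HFD 2 and HFD 3, against 1.39%, 1.04% and 0.992% in LFD 1, LFD 2 and LFD 3 (means 0.724% ± 0.184 and 1.14% ± 0.219, SD, n = 3 each; exact permutation test, p = 0.1, adjusted 0.15). Most of the sum lay in tRF00006835 (means 0.243% in HFD and 0.605% in LFD) and tRF00006833 (0.292% and 0.397%). Member by member the direction was mixed, and 34 of the 62, tRF00006830 among them, had a higher mean share in HFD. The difference in the sum depended on the totals used. With tRF00041773, the most abundant tRF of the table, left out of the totals, the means were 1.33% and 1.40% (exact permutation test, p = 0.9), and with TMM-scaled totals 0.889% and 0.929% (p = 0.9, exact). With either of these totals the sum of all 62, in turn, did separate the diets. It was 1.97 times as high in HFD as in LFD (exact permutation test, p = 0.1, the smallest possible).

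tRF00006830 was counted 350723, 500262 and 165591 times in HFD 1, HFD 2 and HFD 3, against 32072, 101182 and 182906 in LFD 1, LFD 2 and LFD 3. This is 2.88%, 4.58% and 2.88% of the counts in the HFD libraries, against 2.42%, 2.18% and 1.88% in the LFD libraries, which do not overlap. It ranked 5 among the tRFs of the table by mean share and was picked for its abundance, with these shares known. The next members, tRF00006835 and tRF00006833, ranked 22 and 27 and divided most of the remaining counts.

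tRF00006835 was counted 41090, 7858 and 18353 times in HFD 1, HFD 2 and HFD 3, against 8551, 28652 and 53809 in LFD 1, LFD 2 and LFD 3. Per 100 reads of tRF00006830, these are 11.7, 1.57 and 11.1 reads in the HFD libraries, against 26.7, 28.3 and 29.4 in the LFD libraries. The LFD libraries lay close together, HFD 1 and HFD 3 had fewer than 12 reads, and HFD 2 stood apart with the fewest. As a share of all counts, tRF00006835 averaged 0.243% ± 0.148 in HFD, against 0.605% ± 0.0477 in LFD (SD, n = 3 each). Its log2 fold change was −0.81 (SE 0.64, edgeR adjusted p = 0.523), −0.42 without HFD 2, −0.29 with upper quartile scaling and −1.33 with library size only. tRF00006833 lay between the others, with 10.6, 5.14 and 11.6 reads per 100 of tRF00006830 in the HFD libraries, against 20.4, 14.9 and 19.8 in the LFD libraries. Here, too, no HFD library reached the lowest LFD library. Its log2 fold change was 0.15 (SE 0.51, edgeR adjusted p = 0.880) and −0.45 with library size only, so its own direction depends on the scaling, while its ratio to tRF00006830 does not.

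None of the 62 members passed an adjusted p of 0.05 in edgeR, as none of the 3200 tRFs tested did (0% of them). At an unadjusted p under 0.05, 5 members (8.06%) were higher in HFD and 0 were lower, where 10.9% and 9.47% of all tRFs tested were. DESeq2 called the same 5 members at an adjusted p of 0.05, namely tRF00006782, tRF00006817, tRF00006826, tRF00006830 and tRF00006874, all higher in HFD, beside 9.22% of all tRFs called higher and 10.4% called lower. Both counts of higher members are near the share among all tRFs. The median log2 fold change was 0.79 over the members and −0.36 over all tRFs tested, and 46 of the 62 lay above −0.36 (with library size only, 48 lay above the median of all tRFs tested).

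By library, 9 members (14.5%) had a larger share of all counts in every HFD library than in any LFD library, and 16 (25.8%) had a smaller one. Among all tRFs tested these shares were 7.94% and 19.3%. With TMM-scaled totals the balance turned, to 25 of the 62 members higher and 8 lower in every HFD library. Of all 3200 tRFs tested, 509 (15.9%) were higher and 222 (6.94%) lower, each a smaller part than among the members. Without LFD 1, 24 members had a larger and 17 a smaller share in every HFD library, and without HFD 3 these were 18 and 17. Leaving out a library can only keep or raise such counts, and no share over all tRFs was set beside them. They therefore do not show whether the balance rests on single libraries. The sign of the log2 fold change turned for 8 of the 62 members with library size only. The ratio to tRF00006830 within each library, which no scaling alters, was used to see which members followed it. Of the other 61 members, 38 overlapped between the diets in this ratio. The ratio was lower in every HFD library for 22 (36.1%) and higher in every HFD library for 1, tRF00006826 (1.64%). The latter count was 7 without LFD 1 and 3 without HFD 2, and it, too, cannot fall when a library is left out. Of all other tRFs tested, 33.2% were lower and 4.13% higher, so falling behind tRF00006830 was about as common among all tRFs as among its neighbours in number.

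Some members kept an almost fixed ratio to tRF00006830 in all 6 libraries. tRF00006760 was counted 3050, 4545 and 1376 times in HFD 1, HFD 2 and HFD 3, against 340, 938 and 1681 in LFD 1, LFD 2 and LFD 3. That is 0.870, 0.909 and 0.831 reads per 100 of tRF00006830 in the HFD libraries, against 1.06, 0.927 and 0.919 in the LFD libraries. The groups do not overlap, but the gap is small, with a log2 ratio 0.15 lower in HFD in the mean. tRF00006769, counted 578, 746 and 273 times in the HFD libraries, against 50, 162 and 277 in the LFD libraries, had the steadiest ratio of the members with at least 10 counts in every library. The SD of its log2 ratio over the 6 libraries was 0.06, under the 0.11 that counting error alone would give. The SD was 0.12 for tRF00006760 and 0.15 for tRF00006819 (counting error alone 0.05 and 0.13). Their log2 fold changes were 1.20 for tRF00006760 and 1.33 for tRF00006769, beside 1.32 for tRF00006830, and none of these 3 members was called (edgeR adjusted p = 0.328, 0.308 and 0.315 for tRF00006760, tRF00006769 and tRF00006819). With library size only, the log2 fold changes were 0.51 for tRF00006760, 0.68 for tRF00006769 and 0.66 for tRF00006830. Without HFD 2, that of tRF00006760 was 0.73 and that of tRF00006830 was 0.90. At the other end, again among members with at least 10 counts in every library, the SD was 1.62 for tRF00006835, 1.65 for tRF00006882 and 1.66 for tRF00006889. Some rarer members had a larger SD. tRF00006882 was counted 95, 19 and 43 times in the HFD libraries, against 25, 68 and 128 in the LFD libraries, and its lowest count was in HFD 2, as for tRF00006835. tRF00006889 had its lowest count there as well, counted 84, 13 and 22 times in the HFD libraries, against 14, 53 and 91 in the LFD libraries.

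To describe how the members divide, each was set beside the 5 most abundant ones and assigned to the one it kept the steadiest ratio with, that is, the smallest SD of the log2 ratio over the 6 libraries. This grouping was made after the counts were seen and carries no test. Of the other 57 members, 27 were most alike tRF00006830, 14 most alike tRF00006835, 12 most alike tRF00006833, 2 most alike tRF00006806 and 2 most alike tRF00006826. The 27 all had positive log2 fold changes (0.47 to 2.44, median 1.29). The 14 all had negative ones (−1.95 to −0.51, median −0.91), and 12 of them took a smaller share of all counts in every HFD library. The 12 lay between (−0.47 to 0.77, median 0.09). These signs are those with TMM scaling. With library size only, tRF00006864 and tRF00006899 of the 27 turned negative. With upper quartile scaling, tRF00006821 and tRF00006840 of the 14 turned positive. The fold changes come from the same counts as the grouping and are no separate evidence. Members with few counts carry large counting error, and only 22 of the 57 had at least 10 counts in every library. Of these 22, 14 were most alike tRF00006830, 5 tRF00006835, 2 tRF00006833 and 1 tRF00006826. HFD 2, where tRF00006835 is lowest, weighs on the grouping, and without it 43 of the 57 kept the same partner.

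The members hold 11 runs of 3 or more consecutive numbers, with 38 members in all. In 8 of these runs, that of tRF00006830 not counted, 3 neighbours stood in 1 order. The first was most alike tRF00006830, the second most alike tRF00006833 and the third most alike tRF00006835. tRF00006830, tRF00006833 and tRF00006835 stand in that order themselves, with the rarer tRF00006831, tRF00006832 and tRF00006834 between them. The run of tRF00006830 also holds the order in consecutive numbers, since tRF00006831 was most alike tRF00006833 and tRF00006832 most alike tRF00006835 (SD 0.78 and 0.77). The remaining runs did not have this order. tRF00006825, tRF00006826 and tRF00006827 were most alike tRF00006835, tRF00006826 itself and tRF00006830, and tRF00006847, tRF00006848 and tRF00006849 were most alike tRF00006833, tRF00006835 and tRF00006830. tRF00006847 took 66.3%, 52.4% and 36.8% of its run in the HFD libraries, against 69.2%, 34.6% and 50.9% in the LFD libraries, and the groups overlap.

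In the set of tRF00006760, tRF00006761 and tRF00006762, the first took 81.2%, 92.6% and 80.4% of the counts of the 3 in HFD 1, HFD 2 and HFD 3, against 66.5%, 69.5% and 65.5% in LFD 1, LFD 2 and LFD 3. The same share of tRF00006830, among itself, tRF00006833 and tRF00006835, was 81.7%, 93.7% and 81.5% in the HFD libraries, against 68.0%, 69.8% and 67.0% in the LFD libraries. In each library, then, both sets were divided almost alike, although the set of tRF00006760 had 14803 counts over all libraries and that of tRF00006830 had 1630971. tRF00006762 took 9.72%, 1.77% and 9.99% of its set in the HFD libraries, against 18.2%, 18.4% and 19.5% in the LFD libraries. tRF00006761 took 9.05%, 5.62% and 9.59% in the HFD libraries, against 15.3%, 12.1% and 15.0% in the LFD libraries. In LFD 1, where the set had 511 counts, the exact 95% interval of the share of tRF00006760 ran from 62.3% to 70.6%.

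The 8 sets were chosen for their likeness to tRF00006830, tRF00006833 and tRF00006835 in these same 6 libraries, so that their shares differ between the diets in the same way follows from the choice, and the shares are a description only. The likeness was loose in some sets, since the smallest SD need not be small. It was 1.04, 1.04 and 1.62 for tRF00006864, tRF00006865 and tRF00006866, and 0.66 and 0.65 for tRF00006820 and tRF00006821. Over all 8 sets summed, the first numbers took 81.6%, 93.3% and 82.3% of the counts in HFD 1, HFD 2 and HFD 3, against 68.7%, 70.0% and 66.4% in LFD 1, LFD 2 and LFD 3. The third numbers took 9.79%, 1.66% and 9.21% in the HFD libraries, against 18.5%, 19.2% and 19.8% in the LFD libraries. Set by set, the first number's share was higher in every HFD library in 7 of the 8, and the third number's share was lower in every HFD library in the same number. The second number's share was lower in every HFD library in 3. The exception to the first 2 counts was the set that begins with tRF00006819. There, tRF00006819 took 92.2%, 97.4% and 90.1% in the HFD libraries, against 95.5%, 87.5% and 84.0% in the LFD libraries, and tRF00006820 and tRF00006821 had 1 count each in LFD 1. In all 8 sets HFD 2 had the highest share of the first number and the lowest share of the third. The sets that begin with tRF00006880 and tRF00006887 are further examples. tRF00006880 held 78.3%, 92.5% and 74.8% of its set in the HFD libraries, against 63.5%, 57.0% and 58.3% in the LFD libraries. For tRF00006887 it was 77.2%, 93.2% and 82.4% in the HFD libraries, against 65.8%, 68.1% and 67.6% in the LFD libraries.

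This division was not particular to the range of numbers around tRF00006830. Among 1129 other tRFs with at least 10 counts in every library, the 1 with the steadiest ratio to tRF00006830 was tRF00007214, outside the range (SD of the log2 ratio 0.05, beside a median of 1.29 over the 1129). tRF00006540 and tRF00006568 (SD 0.05 and 0.06) came next, before the members tRF00006769 and tRF00006760, and 7 of the 20 most alike were members. With the next 2 numbers, tRF00007214, tRF00006540 and tRF00006568 formed sets of the same order, as did tRF00006592, at rank 6; these, too, were chosen for their likeness. tRF00007214 was counted 82557, 120096 and 37576 times in HFD 1, HFD 2 and HFD 3, against 8058, 23925 and 43891 in LFD 1, LFD 2 and LFD 3. Over these 4 sets the first number took 81.6% to 94.6% in the HFD libraries and 67.5% to 74.2% in the LFD libraries. The tRF most alike tRF00006833 was tRF00007215 (SD 0.06), and the tRF most alike tRF00006835 was tRF00006542 (SD 0.04, followed by tRF00007216 with 0.05). How reads that fit several tRFs were counted is not stated, and its part in these fixed ratios was not tested.

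tRF00006806 and tRF00006826 had another pattern, with similar shares in the HFD libraries and shares that differed widely among the LFD libraries. tRF00006806 was counted 7472, 6577 and 3815 times in HFD 1, HFD 2 and HFD 3, against 1750, 983 and 639 in LFD 1, LFD 2 and LFD 3. It made up 0.0613%, 0.0602% and 0.0663% of all counts in the HFD libraries, against 0.132%, 0.0212% and 0.00657% in the LFD libraries. LFD 1 was thus the highest of all 6 and LFD 3 the lowest, and the groups overlap. The log2 fold change was 1.27 (SE 0.86, edgeR adjusted p = 0.451), with 2.85 without LFD 1, 0.76 without LFD 2, 0.66 without LFD 3 and 0.22 with library size only.

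tRF00006826 was counted 5106, 4374 and 2518 times in HFD 1, HFD 2 and HFD 3, against 266, 291 and 235 in LFD 1, LFD 2 and LFD 3. Its share was 0.0419%, 0.0400% and 0.0438% in the HFD libraries, against 0.0201%, 0.00626% and 0.00242% in the LFD libraries, without overlap. With all 6 libraries, it was the only member whose ratio to tRF00006830 was higher in every HFD library, with 1.46, 0.874 and 1.52 reads per 100 in the HFD libraries against 0.829, 0.288 and 0.129 in the LFD libraries, and HFD 2 stood close above LFD 1. Of all members it had the largest log2 fold change, 3.05 (SE 0.74, with an adjusted p of 0.168 in edgeR and 0.000545 in DESeq2), or 3.41 above the median of all tRFs tested; it ranged from 2.12 with library size only to 3.91 without LFD 1. Relative to tRF00006806, it had 0.683, 0.665 and 0.660 reads per read in the HFD libraries, against 0.152, 0.296 and 0.368 in the LFD libraries. tRF00006817, the member most alike tRF00006826 among those with enough counts, was counted 367, 271 and 210 times in the HFD libraries, against 35, 22 and 16 in the LFD libraries. Its log2 fold change was 2.50 (SE 0.92, with an adjusted p of 0.202 in edgeR and 0.0278 in DESeq2), and it was 3.88 without LFD 1, 1.91 without LFD 3 and 1.51 with library size only. Its share in LFD 1 lay above that in HFD 2, so the groups overlap. This pattern, too, was found outside the range of numbers. Among the 1129 other tRFs with at least 10 counts in every library, tRF00006537 was most alike tRF00006806 (SD 0.06), with 0 members among the 20 most alike. The tRF most alike tRF00006826 was tRF00006567 (SD 0.09), with 1 member, tRF00006817, among the 20. The member tRF00006757, named after its values were seen, had 8 counts in LFD 3 and so was not compared there. Its SD to tRF00006806 was 0.23, smaller than the 0.51 of the 20th. It was counted 71, 64 and 34 times in the HFD libraries, against 17, 12 and 8 in the LFD libraries. The rare tRF00006759, named after its values were seen, is the other member most alike tRF00006826 and the 1 member that met the count minimum in the 3 HFD libraries and in no LFD library. It was counted 47, 42 and 19 times in the HFD libraries, against 5, 2 and 0 in the LFD libraries.

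The count minimum was met in all 6 libraries by 27 members, in more HFD than LFD libraries by 24 and in more LFD than HFD libraries by 10. HFD totals are larger in the mean, so this split is not a comparison of levels. Among the rarer members with the smallest unadjusted p, tRF00006874 was counted 138, 45 and 14 times in the HFD libraries, against 4, 7 and 14 in the LFD libraries. HFD 1 alone holds most of these, and its log2 fold change of 2.24 (SE 0.84, edgeR adjusted p = 0.202) was 1.53 without HFD 1. tRF00006782 was counted 67, 24 and 12 times in the HFD libraries, against 0, 4 and 10 in the LFD libraries (log2 fold change 2.44, SE 0.95, edgeR adjusted p = 0.210). Of the members with negative fold changes, the smallest p belonged to tRF00006832, tRF00006866 and tRF00006825. tRF00006832 was counted 14, 8 and 4 times in the HFD libraries, against 4, 22 and 32 in the LFD libraries (−1.56, SE 0.70, edgeR adjusted p = 0.252). tRF00006866, the third number of its set, was counted 36, 9 and 1 times in the HFD libraries, against 15, 33 and 58 in the LFD libraries. tRF00006825 was counted 16, 6 and 2 times in the HFD libraries, against 5, 14 and 14 in the LFD libraries. All 3 were most alike tRF00006835, and the share of each was lower in every HFD library than in any LFD library.

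At the edge of the rule, the members just inside were tRF00006751, counted 16, 33 and 9 times in the HFD libraries, against 3, 5 and 10 in the LFD libraries, and tRF00006810, counted 13, 5 and 10 times in the HFD libraries, against 4, 3 and 15 in the LFD libraries. Just outside stood tRF00006824, counted 23, 9 and 2 times in the HFD libraries, against 5, 4 and 19 in the LFD libraries, and tRF00006811, counted 16, 4 and 8 times in the HFD libraries, against 5, 8 and 19 in the LFD libraries.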

How the data were processed

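Small RNA from 3 HFD and 3 LFD libraries was sequenced on an Illumina instrument. The authors deposited a table of raw, unnormalized read counts for 65535 tRFs. The submitters' processing notes name the build Rnor_5.0. How reads were aligned, which tRNA annotation was used and how reads fitting several tRNAs were counted is not given in the sources used here. Shares are counts over the library's total in this table; the table stops at the row limit of an older spreadsheet format, the paper names a tRF with a higher number, and tRFs beyond the last row were not analysed here.

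edgeR 4.0.16 (R 4.3.3; TMM, quasi-likelihood test, Benjamini-Hochberg adjustment) was fitted to all 3200 tRFs with at least 10 counts in 3 libraries. Standard errors are the log2 fold change over the square root of F. Log2 ratios had 0.5 added to both counts. Shares were put to exact permutation tests, two-sided (scipy 1.17.1). Alternatives were other scalings, DESeq2 1.42.0, limma 3.58.1 (prior count 1), other count minimums, other ranges of numbers, a block for the replicate number and the omission of each library (with the same 3200 tRFs). The tests were tried on simulated counts.

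Members, lists and tests were chosen with earlier results of these data known. The tRFs named are tRF00006830, the 10 next most abundant members, the 3 with the smallest p in each direction among the rest, the 3 most and the 3 least alike tRF00006830 among members with at least 10 counts in every library, 2 on either side of the count minimum, and others said to be chosen later.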

Additional observations from a re-analysis of the deposited data

How the results depend on the processing

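With each scaling, limma, no count minimum, a minimum of 50 counts and each library left out (0 to 0), edgeR or limma called 0 of the members tested at an adjusted p of 0.05, and DESeq2 called 5. A replicate block, where same-numbered libraries deviated in opposite directions (correlations −0.376, −0.318 and −0.162), also gave 0. It left 2 members at an unadjusted edgeR p under 0.05, where the fit without it had 5. Over all 3200 tRFs tested, 154 were higher and 84 lower in HFD with the block, beside 348 and 303 without it. The drop was thus shared by the whole table. The share of tRF00006830 within the members differed by 16.1 to 16.3 percentage points with other minimums or ranges of numbers, and by 12.0 to 18.2 with a library left out. For the sum of all members the difference was 0.410 to 1.13 points and for the sum without tRF00006830 −0.489 to −0.290 points with a library left out. The members separated from tRF00006830 in their ratio were 12 of the 26 with at least 10 counts in every library, beside 23 of 61. The share among all tRFs with at least 10 counts in every library was not counted, so nothing is read from the 12. With a library left out, 25 to 30 of the 61 were separated, of which 1 to 7 higher in HFD. The members not overlapping in share numbered 26 to 41 with a library left out, the last without LFD 1 (24 higher and 17 lower in HFD), beside 25 (9 higher and 16 lower). Leaving out a library can only keep or raise both of these counts, so they do not test how stable the separation is. No share over all tRFs was set beside them. Among the members named by rule, log2 fold changes changed sign for tRF00006833 (−0.45 with library size only, −0.0507 to 0.41 with a library left out), tRF00006761 (0.41 with the upper quartile, 0.37 without a count minimum, −0.29 to 0.14 with a library left out) and tRF00006810 (0.46 with the upper quartile, 0.0022 with limma, 0.41 without a count minimum, 0.0081 with the replicate block, −0.54 to 0.28 with a library left out), beside 0.15, −0.08 and −0.04. Over all 62 members, the sign turned for 8 with library size only, 6 with the upper quartile and 2 with RLE, another scaling. The members most alike tRF00006830 numbered 21 (without HFD 2) to 28 with a library left out, an alternative added after the data were seen. Why the settings differ was not tested.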
